A study of Hordeum vulgare with 18 samples.

Results

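Small RNAs of barley shoots were compared after 6 h at 35.5 °C and after 6 h at 21 °C. The comparison took in the 6 libraries that the labels assign to these 2 groups, of 18 libraries in the series, with 3 heat and 3 control libraries. Plants of the spring barley line Rolap were 2 weeks old, 3 seedlings were grown to a pot, and every plant had been raised at 21 °C by day and a cooler night before the treatment. Each library came from 100 mg of ground shoot, and the labels call the 3 of a group biological replicates. All 6 libraries shared lane 2 of the sequencer. The deposited 6 h table listed 4603 sequences of 18 to 25 nt from 186 numbered microRNA (miRNA) families, each matching a known plant miRNA precursor without a mismatch. The annotation named 26 species, and barley for 824 of the 4603 sequences. Precursor names such as MIR444c thus need not be those of barley loci.

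A plant miRNA is cut from a hairpin precursor as a duplex of a 5′ and a 3′ arm, and as a rule one arm is loaded into an ARGONAUTE protein while the other, the passenger strand, is degraded. The loaded strand pairs with mRNAs, many of them encoding transcription factors, and leads to their cleavage or to a block of translation. Its ends are not fixed: shorter and longer forms of the same strand, called end variants, come from shifted cuts or from trimming and tailing. In shoots, families of this kind act in leaf polarity, phase change, hormone response and the supply of phosphate and copper.

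The annotation sorted each sequence into Mature 5′, Mature 3′ or Precursor, with 119, 137 and 4347 sequences. The 5′ and 3′ labels of mature forms and arms below follow this annotation. They were not checked against the hairpins, so a label need not give the true arm. The last class is not intact precursor RNA: it holds any sequence that is not a catalogued mature form. By shared bases and counts it was largely end variants of mature forms, which held 45.2% of all counts, while sequences with under 15 bases in common with any mature form held 2.71%. The sequences below carry the main differences, 5′ to 3′ as deposited with T for U. Capitals mark bases 2 to 8, the seed, of mature forms and their end variants. Other sequences of the Precursor class, which can include the opposite strand of a duplex, are in lower case throughout.
MIR444c, most abundant precursor sequence of miR444: cggcaagctagagacagcaac
MIR444b and MIR444c, mature 3′: tGTTGTCTcaagcttgctgcc
MIR444b, mature 3′: tGCAGTTGctgcctcaagctt
MIR827, mature 5′: tTTTGTTGgttgtcatctaacc
MIR399a, mature 5′: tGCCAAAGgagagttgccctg
MIR165a and MIR165b, mature 3′: tCGGACCAggcttcatccccc
MIR166e and MIR166b, most abundant of the table: tTCGGACCaggcttcattccc
MIR166d, mature 5′: gGAATGTTgtctggctcgggg
MIR172b, mature 5′: gCAGCACCaccaagattcaca
MIR319b, most abundant of miR319: cTTGGACTgaagggtgctccct
MIR167f, mature 5′: tGAAGCTGccagcatgatctgc
MIR5051, mature 3′: tTTGGCACcttgaaactggga
MIR9863a and MIR9863b, mature 3′: tGAGAAGGtagatcataatagc
MIR408, mature 5′: cAGGGATGgagcagagcaagg
MIR528, mature 3′: cCTGTGCCtgcctcttccatt

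Among the tested mature forms, 10 sequences of miR165, miR166 and miR5168 shared the seed CGGACCA, the only seed that occurred in more than 1 family.

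Total counts in the table ran from 1449374 to 2392885 in the heat libraries and from 1493566 to 1674555 in the control libraries, which was 5.11 to 9.02% and 6.05 to 6.47% of the library totals implied by the deposited RPM values. Levels below are CPM, counts scaled to a table total of 1000000 with TMM factors, fold changes are on the log2 scale, heat relative to control, and stand with their SE, and n = 3 libraries a group unless said otherwise. A call is an adjusted p under 0.05 over the whole table. Of miR2118, miR2275 and miR482, families known to trigger phased small RNAs, miR2118 and miR2275 mainly in the reproductive tissue of grasses, only miR2275 was counted, 8 times in the heat and 2 times in the control libraries. Heat replicate 2 lay apart: along the leading principal component, with 43.0% of the variance over families, it stood at 6.70 and the other libraries between -1.67 and -1.06. There 18 of the 673 tested sequences were at least 4-fold below their level in every other library, and 0 to 3 were so in the others. Results are therefore also given without it.

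Of 673 sequences tested, 84 were called (12.5%), 47 higher (6.98%) and 37 lower (5.5%) after 6 h of heat. Their ranges in heat and control did not overlap for 216 of the 673 (32.1%), and 182 had an unadjusted p under 0.05. Of the 84, 60 belonged to the 546 tested sequences of the Precursor class, 12 to the 61 of Mature 3′ and 12 to the 66 of Mature 5′. The median change was 0.04. Called sequences came from 26 families, most from miR169 (13 of 72 tested), miR444 (9 of 39), miR319 (7 of 17), miR166 (7 of 62) and miR396 (7 of 63). Without heat replicate 2 the call count was 77. Leaving out heat replicate 1 or 3 gave 43 or 63 calls, and leaving out control replicate 1, 2 or 3 gave 26, 26 or 45. Against a fold of at least 2, 9 sequences passed. With the library totals implied by the deposited RPM in place of the table totals, the median of all tested sequences was 0.24, and 49 sequences were called higher and 22 lower. Among families, 11 of 73 were called (15.1%), 7 higher (9.59%) and 4 lower (5.48%), with 17 at an unadjusted p under 0.05. Ranges in heat and control did not overlap for these 11, nor for 12 families that were not called (23 of 73 in all, 31.5%). With implied library totals 3 families passed, all higher (miR165, miR172, miR9863). Against a fold of at least 2, edgeR called 0 families (1 at an unadjusted p under 0.05; DESeq2, with no minimum fold, called 12). The samples are whole shoots, in which fewer cells of a type and less RNA per cell cannot be told apart.

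**Figure D1:**
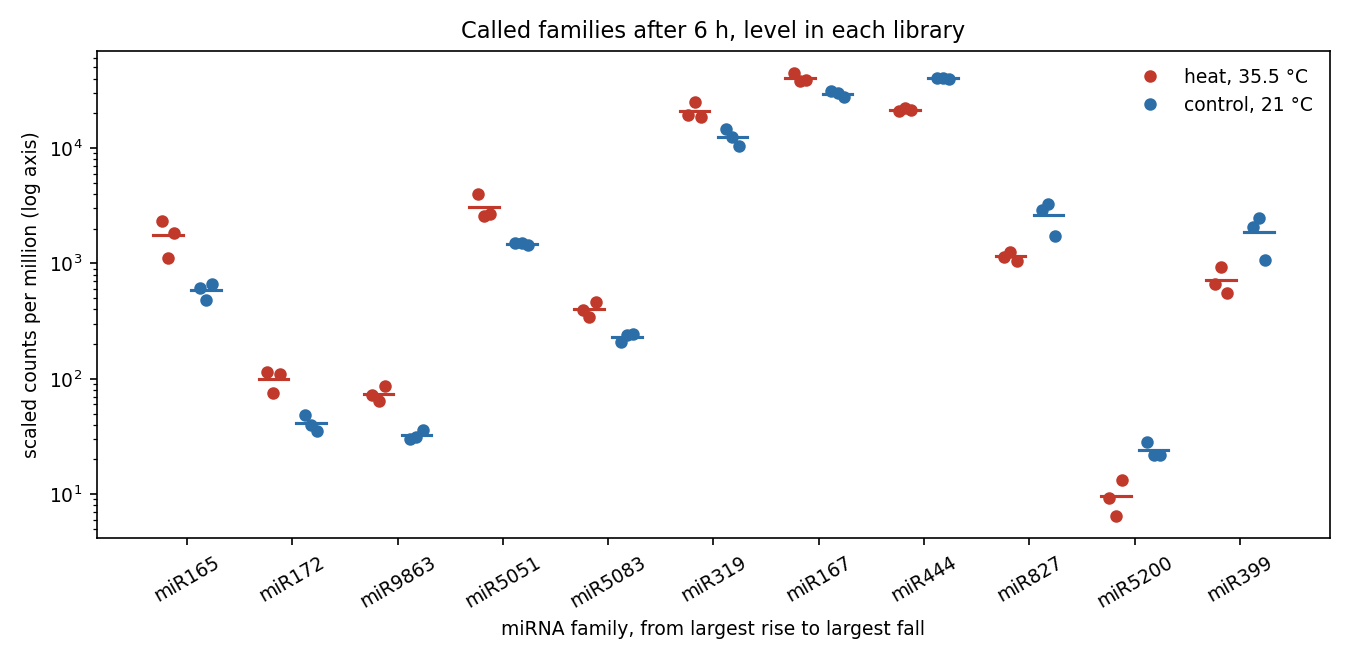
Level of each of the 11 called families in each library, in CPM on a log axis, with heat to the left of control; points are libraries and bars are means of 3. The 7 families on the left are higher in all heat libraries than in any control library, and the 4 on the right are lower.

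The family change with the lowest adjusted p was a fall of miR444, a grass family whose mature forms target mRNAs of MADS-box transcription factors. Its total stood at 20795, 22385 and 21315 CPM in the heat libraries, against 40478, 40617 and 39615 CPM in the control libraries (-0.90 ± 0.10, adjusted p = 0.0018). Each heat library lay far below every control, and the libraries of a group lay close together. Most of the fall was in 1 precursor sequence of MIR444c, printed above, which held 5663, 6839 and 5022 CPM in the heat libraries, against 19793, 19739.8 and 18285 CPM in the control libraries (-1.72 ± 0.14, adjusted p = 0.000615). It was called in each of the 15 alternative fits. Its bases are largely complementary to those of the mature 3′ form of MIR444b and MIR444c printed above, as are the strands of a duplex. By its bases it thus reads as the opposite strand of that form, though the annotation puts it in the Precursor class. The most abundant mature form, of MIR444b and MIR444c, fell less, with 10371, 10516 and 11134 CPM in the heat libraries, against 14930.0, 15192 and 15699 CPM in the control libraries (-0.52 ± 0.11, adjusted p = 0.0176). Another mature form, of MIR444b, rose: it stood at 157.3, 207 and 195 CPM in the heat libraries, against 90.9, 69.7 and 71.4 CPM in the control libraries (1.27 ± 0.20, adjusted p = 0.006). Both mature forms were separated from control in every library, in opposite directions. The MIR444c sequence and the rising form kept their calls with any 1 library left out, and the more abundant mature form lost it without heat replicate 1 or without control replicates 1, 2 or 3 (adjusted p up to 0.0812). With implied library totals the miR444 total lost its call as well, with no change of sign.

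Families of phosphate supply also fell. miR827, which in rice targets mRNAs of SPX-domain membrane proteins, stood at 1145, 1264 and 1040.1 CPM in the heat libraries, against 2923, 3304 and 1722 CPM in the control libraries (-1.20 ± 0.27, adjusted p = 0.0303). miR399, which targets the mRNA of the ubiquitin-conjugating enzyme PHO2, stood at 660.0, 936 and 557 CPM in the heat libraries, against 2049, 2471 and 1078 CPM in the control libraries (-1.38 ± 0.35, adjusted p = 0.0371). In both, the control libraries were spread widely and control replicate 3 was the lowest of them, the nearest to the heat libraries. For miR827 the mature 5′ form carried the fall, with 604, 655 and 530.1 CPM in the heat libraries, against 2203, 2295 and 1136 CPM in the control libraries (-1.65 ± 0.26, adjusted p = 0.00583). The mature 3′ form, the strand known as miR827 in rice and Arabidopsis, had a fold change of -0.40 ± 0.22 (adjusted p = 0.322), and its ranges overlapped. For miR399 the form annotated as mature 5′ of MIR399a held 479, 674 and 345 CPM in the heat libraries, against 1457, 1853 and 849 CPM in the control libraries (-1.47 ± 0.32, adjusted p = 0.0192). The third member of that group, miR395, which acts in sulfate supply, stood at 0.39 ± 0.35, adjusted p = 0.677. miR5200, which in Brachypodium targets FT mRNAs of the flowering pathway, was scarce, with 9.28, 6.46 and 13.1 CPM in the heat libraries, against 28.6, 22.0 and 21.8 CPM in the control libraries (-1.34 ± 0.35, adjusted p = 0.0406). All of its counts in heat and nearly all in control were of the Precursor class, and the total of that class was not called (-1.31 ± 0.37, adjusted p = 0.0534). All heat libraries were under all controls for the miR827, miR399 and miR5200 totals. The mature 5′ form of miR827 kept its call with any 1 library left out, and that of MIR399a lost it without heat replicate 1 or without control replicates 1 or 2 (adjusted p up to 0.0931).

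Among the risers, miR165 changed most. It differs from miR166 by little, and both target mRNAs of HD-ZIP III transcription factors, which set the upper side of the leaf. The miR165 total stood at 2326, 1108 and 1823 CPM in the heat libraries, against 609, 483 and 668 CPM in the control libraries (1.58 ± 0.30, adjusted p = 0.0229). Heat replicate 2 was the lowest of the heat libraries and still above all controls. All 3 tested miR165 sequences were called higher, among them the mature 3′ form (1.56 ± 0.27, adjusted p = 0.00851). miR166, the most abundant family, was not called: its total stood at 295032, 301880 and 294383 CPM in the heat libraries, against 333948, 384981 and 333808 CPM in the control libraries (-0.24 ± 0.07, adjusted p = 0.0772). The most abundant sequence of the table, of MIR166e and MIR166b, had a fold change of -0.24 ± 0.11, adjusted p = 0.195. For both values every heat library lay under every control, and the family passed with RLE factors and with TMM factors of the tested sequences. Because miR165 and miR166 share most of their bases, which family a read was given to rests on the annotation and is uncertain. The call of the miR165 mature form was lost without control replicates 1 or 2 (adjusted p up to 0.0562).

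miR172, which targets AP2-like mRNAs and marks the adult phase of the shoot, stood at 114, 75.0 and 110.1 CPM in the heat libraries, against 48.3, 39.5 and 35.1 CPM in the control libraries (1.28 ± 0.25, adjusted p = 0.0229). Its heat libraries all lay above the controls, heat replicate 2 being the lowest. Most of this total was annotated as mature 5′, with 195, 134 and 139 of 259, 174 and 176 counts in the heat libraries. In the control libraries it was 52, 58 and 40 of 76, 63 and 53 counts. No mature 3′ total was tested. Whether the counted strand is the one that acts on AP2-like mRNAs was not tested either. The other tested family of phase change, miR156, which targets SPL mRNAs and marks the juvenile phase, stood at -0.10 ± 0.24 (adjusted p = 0.893), with overlapping groups. The sign of miR156 was the other way with implied library totals (0.19), without heat replicate 3 (0.062) and without control replicate 1 (0.004). miR319, which targets TCP mRNAs of leaf growth, stood at 19393, 25259 and 18498 CPM in the heat libraries, against 14587, 12515 and 10449 CPM in the control libraries (0.75 ± 0.18, adjusted p = 0.0356), and heat replicate 2 was the highest library. miR167, which targets mRNAs of auxin response factors, stood at 44812, 38459.7 and 39227 CPM in the heat libraries, against 31237, 29781 and 27968 CPM in the control libraries (0.46 ± 0.11, adjusted p = 0.0356), a small but separated difference. Its most abundant sequence, the mature 5′ form of MIR167f, held 29166, 22007 and 24791 CPM in the heat libraries, against 17854, 16476 and 13816 CPM in the control libraries (0.66 ± 0.15, adjusted p = 0.0233), and the groups were apart. Its call was lost without heat replicate 1 or without control replicates 1, 2 or 3 (adjusted p up to 0.111).

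The remaining risers, miR9863, miR5051 and miR5083, were all on the list of cereal families. miR9863, which in barley targets mRNAs of MLA immune receptors, stood at 72.0, 64.2 and 86.4 CPM in the heat libraries, against 29.9, 31.4 and 35.7 CPM in the control libraries (1.20 ± 0.22, adjusted p = 0.0229). Its mature 3′ form was nearly missing from control, with 25.2, 29.7 and 50.7 CPM in the heat libraries, against 3.18, 7.53 and 1.32 CPM in the control libraries (3.09 ± 0.56, adjusted p = 0.00992; 207 counts in heat and 19 in control). Heat and control libraries were apart for both values. miR5051 stood at 3966, 2561 and 2693 CPM in the heat libraries, against 1499, 1505 and 1438 CPM in the control libraries (1.05 ± 0.22, adjusted p = 0.0231), with heat replicate 1 the highest. miR5083 stood at 392.8, 346 and 459 CPM in the heat libraries, against 208, 239.8 and 244 CPM in the control libraries (0.79 ± 0.20, adjusted p = 0.0371). The miR5083 counts were all of the Precursor class. For both families every heat library was above every control. The calls of the miR9863 and miR5051 mature forms were lost without control replicate 1 (miR9863, adjusted p up to 0.058) and without control replicates 1 or 2 (miR5051, adjusted p up to 0.0568). Of the 11 family calls only miR444 was kept in each fit that left out a library. Without heat replicate 2 the calls of miR167, miR319 and miR5200 were lost (adjusted p up to 0.0847). Without heat replicate 1, miR165, miR444, miR5051 and miR9863 kept their calls, and without control replicate 3, miR399, miR444 and miR827 did. Without heat replicate 3, control replicate 1 or control replicate 2, miR444 was the only one of the 11 to keep its call, and the adjusted p of the others reached 0.157, 0.217 and 0.188. No fold change of the 11 turned its sign in these fits.

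The question whether the mature arms of a family and the sequences annotated to its precursor moved together was tested in 2 ways. Totals by family and match type gave 18 calls among 127 (14.2%), 10 higher and 8 lower. Several calls were of 1 arm in a family whose total was not called. The targets given are those known for the family, and whether the called arm is the strand that acts on them was not tested. In miR408, miR166 and miR390 the called arm was the scarcer mature arm in both groups. In miR408, which targets mRNAs of copper proteins such as plantacyanin, the mature 5′ arm held 15.0, 30.2 and 5.63 CPM in the heat libraries, against 76.9, 124 and 79.4 CPM in the control libraries (-2.43 ± 0.54, adjusted p = 0.0254). The abundant mature 3′ arm of miR408 had a fold change of 0.07 ± 0.39, adjusted p = 0.911, and its groups overlapped. In miR528, which in rice targets the mRNA of an ascorbate oxidase, the mature 3′ arm held 7.07, 13.4 and 3.75 CPM in the heat libraries, against 37.5, 90.4 and 23.8 CPM in the control libraries (-2.61 ± 0.63, adjusted p = 0.0329). The miR528 mature 5′ arm and precursor class stood at 0.66 ± 0.58, adjusted p = 0.588 and 0.82 ± 0.42, adjusted p = 0.248. For both called arms every heat library was under every control, and control replicate 2 was the highest. In miR166 the mature 5′ arm held 2060.1, 2283 and 1841 CPM in the heat libraries, against 3368, 3428 and 4637 CPM in the control libraries (-0.89 ± 0.17, adjusted p = 0.0177). All heat libraries were below the controls. Its called members were the mature 5′ forms of MIR166c (-1.49 ± 0.28), MIR166d (-1.11 ± 0.17) and MIR166e (-1.03 ± 0.22), of which that of MIR166d kept its call with any 1 library left out. In miR390, which triggers the ta-siRNAs that act on auxin response factors, the mature 3′ arm rose: it held 12.4, 9.05 and 10.6 CPM in the heat libraries, against 0, 2.51 and 0.662 CPM in the control libraries (3.24 ± 0.80, adjusted p = 0.0331), few counts in any library. The miR390 mature 5′ arm stood at 0.19 ± 0.20, adjusted p = 0.65. In miR171, which targets GRAS-family mRNAs, the mature 5′ arm fell (-0.51 ± 0.14, adjusted p = 0.0496). Each of these 5 calls was lost in some fits with 1 library left out: that of miR408 was lost without heat replicate 1 or without control replicates 1 or 2 (adjusted p up to 0.118), that of miR528 was lost without heat replicates 1 or 3 or without control replicates 1 or 2 (adjusted p up to 0.124), that of miR166 was lost without heat replicate 1 or without control replicates 1 or 2 (adjusted p up to 0.0656), that of miR390 was lost without heat replicates 1 or 3 or without control replicates 1, 2 or 3 (adjusted p up to 0.108), and that of miR171 without heat replicates 1, 2 or 3 or without control replicates 1, 2 or 3 (adjusted p up to 0.183). The count of arm calls was 18 without heat replicate 2 (15 of them shared), 7 or 9 if heat replicate 1 or 3 was left out, and 1, 2 or 14 if control replicate 1, 2 or 3 was. The miR444 precursor class was kept in all of these fits.

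**Figure D2:**
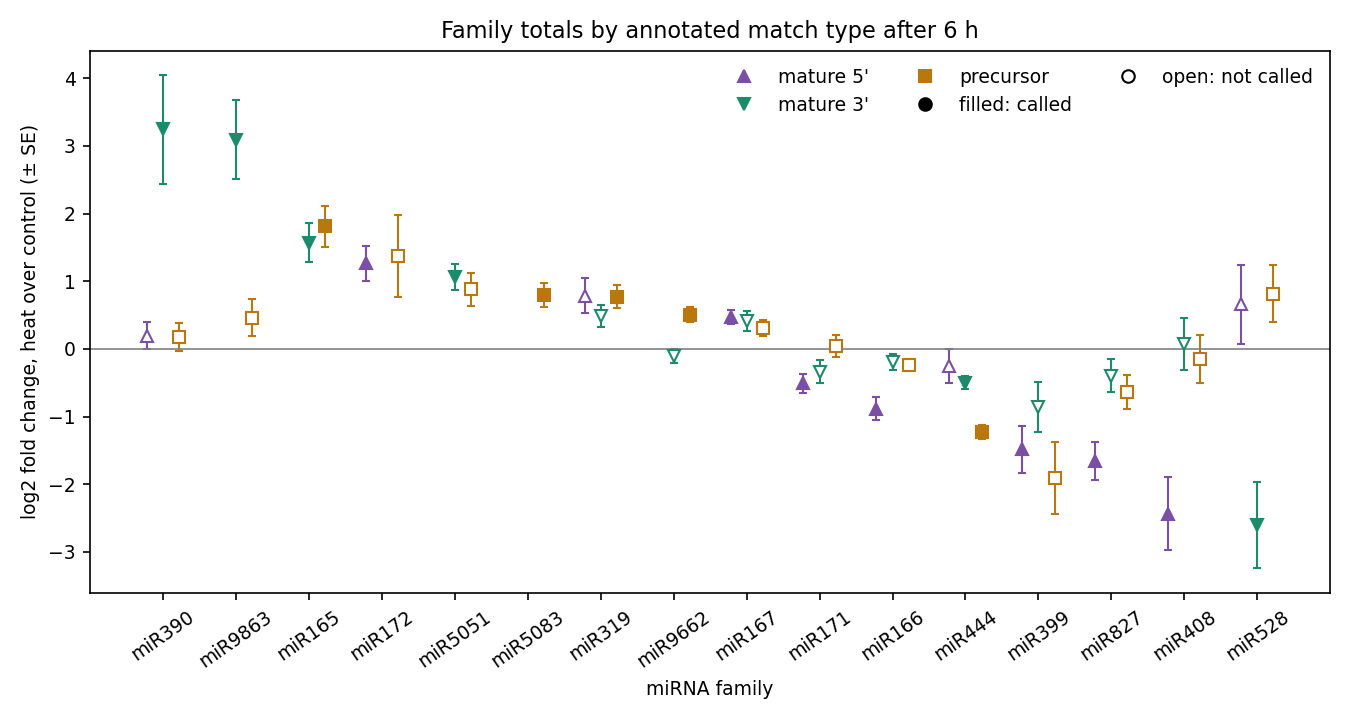
Log2 fold change of heat over control with its SE for the mature 5′, mature 3′ and precursor-class totals of the 16 families with at least 1 called total; filled symbols are called. In miR165 and miR444 the called classes lie on the same side of 0, while in miR408, miR528 and miR390 1 arm lies more than 2 log2 units from 0 and the others nearer to it.

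The second test was of the log2 ratio of mature to precursor-class counts within a library, which needs no scaling between libraries. It differed in 8 of 37 families (21.6%), with 10 at an unadjusted p under 0.05. In miR444 the ratio was higher in heat, at 0.0731, -0.0816 and 0.216 (log2) in the heat libraries, against -0.733, -0.711 and -0.571 (log2) in the control libraries (difference 0.74 ± 0.13, limma adjusted p = 0.0185). The precursor class outweighed the mature forms in all control libraries, and both were about equal in heat. The MIR444c sequence printed above was a large part of that class, with 31150 of 39773 counts in control replicate 1 and 12819 of 22938 in heat replicate 1. The miR444 ratio thus sets the mature forms largely against that strand, and not against intact precursor RNA. The ratio was also higher for miR9863 (2.79 ± 0.75, adjusted p = 0.0469). Its mature counts were 57, 69 and 81 in heat and 5, 12 and 2 in control. It thus met the minimum of 10 counts, a mean over all libraries, through heat, and its control ratios rest on few counts. With a minimum mean of 100 counts, 6 of the 8 were tested and called, without miR9863 and miR528. The ratio was lower in heat for 6 families: miR528 (-1.83 ± 0.40), miR160 (-0.83 ± 0.16), miR394 (-0.80 ± 0.14), miR827 (-0.64 ± 0.13), miR9662 (-0.61 ± 0.11) and miR171 (-0.50 ± 0.12). The ratio sums both mature arms, which could change unequally. In miR528 the mature 5′, mature 3′ and precursor-class totals stood at 0.66, -2.61 and 0.82. In the same order they stood at -1.65, -0.40 and -0.64 in miR827 and at -0.49, 0.43 and 0.50 in miR160. In these families the ratio thus need not describe each arm. miR160 targets mRNAs of auxin response factors, and miR394 that of an F-box protein in Arabidopsis. For miR9662 the lower ratio came with a higher precursor class (0.50 ± 0.11, adjusted p = 0.0254), while its mature 3′ arm stood at -0.11 ± 0.11, adjusted p = 0.64. With limma, 0 ratios passed without heat replicate 1 (9 at an unadjusted p under 0.05) and 0 without control replicate 1 (10 unadjusted). It was 7 without heat replicate 2, 5 without heat replicate 3, and 2 and 6 without control replicates 2 and 3. The direction of all 8 was kept in these fits.

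Family lists written around known roles were read against the 6.98% of sequences called higher, the 5.5% called lower and the median of 0.04. The leaf development list (miR159, miR165, miR166, miR319, miR396) had 22 of 177 sequences higher and 6 lower, with a median of 0.30. Of its families miR165 and miR319 rose. miR396, which targets mRNAs of growth-regulating factors, was at the edge (0.30 ± 0.09, adjusted p = 0.0503), each heat library above each control. miR159, which targets GAMYB mRNAs, stood at -0.30 ± 0.25, adjusted p = 0.658. The list of miR169 and miR171, which act on NF-YA and GRAS mRNAs, leaned the other way, with 1 of 87 higher and 14 lower and a median of -0.21. Of the 14, 12 were of miR169, whose mature forms target NF-YA mRNAs. They include MIR169c sequences outside the mature forms, given below. The miR169 mature 5′ total (-0.13 ± 0.20, adjusted p = 0.755) and mature 3′ total (0.08 ± 0.21, adjusted p = 0.841) were not called. The miR169 total was not called (-0.10 ± 0.16, adjusted p = 0.854; 0.11 with implied library totals). The phosphate and sulfate list had 0 of 14 higher and 4 lower, with a median of -1.16. The auxin list (miR160, miR164, miR167, miR390, miR393) had 8 of 70 higher, 5 of them of miR167, and 1 lower, with a median of 0.14. miR160, miR164 and miR393 stood at 0.34 ± 0.18, -0.01 ± 0.23 and -0.03 ± 0.16. The copper list had 0 of 27 higher and 2 lower, the miR408 and miR528 arms above, with a median of 0.07. edgeR called 0 of its 4 families (0 at an unadjusted p under 0.05, 0 by DESeq2). miR408, miR397, miR398 and miR528 stood at 0.02 ± 0.39, -0.15 ± 0.25, 0.19 ± 0.34 and -0.10 ± 0.47. For the miR408 total the sign was the other way with DESeq2 (-0.025), with RLE factors (-0.025), without heat replicate 2 (-0.51), without control replicate 3 (-0.25) and with TMM factors of the tested sequences (-0.032). The phase change list had 1 of 41 higher, of miR172, with a median of 0.23. The silencing list had 3 of 25 higher and 1 lower, all of miR168, which targets the mRNA of ARGONAUTE1, with a median of 0.15. The miR168 total stood at -0.03 ± 0.17, adjusted p = 0.955. Its sign was the other way under implied totals (0.24) and in the fits that left out heat replicate 3 (0.11) or control replicate 2 (0.01). The abundant mature 5′ arm of miR168 stood at -0.08 ± 0.20 and the scarcer mature 3′ arm at 0.21 ± 0.10 (edgeR adjusted p = 0.844 and 0.206). Whether the called forms are of the strand that acts on ARGONAUTE1 mRNA was not tested. The cereal list had 10 of 120 higher and 10 lower, with a median of -0.01. The families of earlier barley heat work (miR160, miR166, miR167, miR5175) had 10 of 108 higher and 5 lower, with a median of 0.11, and of the 3 tested miR167 rose.

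A pattern chosen after the values were seen ran across families: sequences that share the 5′ end of a more abundant form but stop short of its 3′ end were often higher in heat. Each sequence was set against the most abundant overlapping sequence of its family, its main form. Among 89 tested 3′ trimmed sequences, 17 were higher and 5 lower, with a median of 0.31. The main forms themselves had 12 higher and 19 lower, with a median of -0.04. The 5′ trimmed sequences had 5 higher and 5 lower of 89, and the 3′ extended ones 4 and 2 of 65. Sequences that differ at both ends had 8 higher and 5 lower of 193, and the 5′ extended ones 0 and 0 of 47. Over all 673 tested sequences, 6.98% were called higher and 5.5% lower. Without heat replicate 2 the 3′ trimmed sequences had 14 higher and 4 lower of 88.

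**Figure D3:**
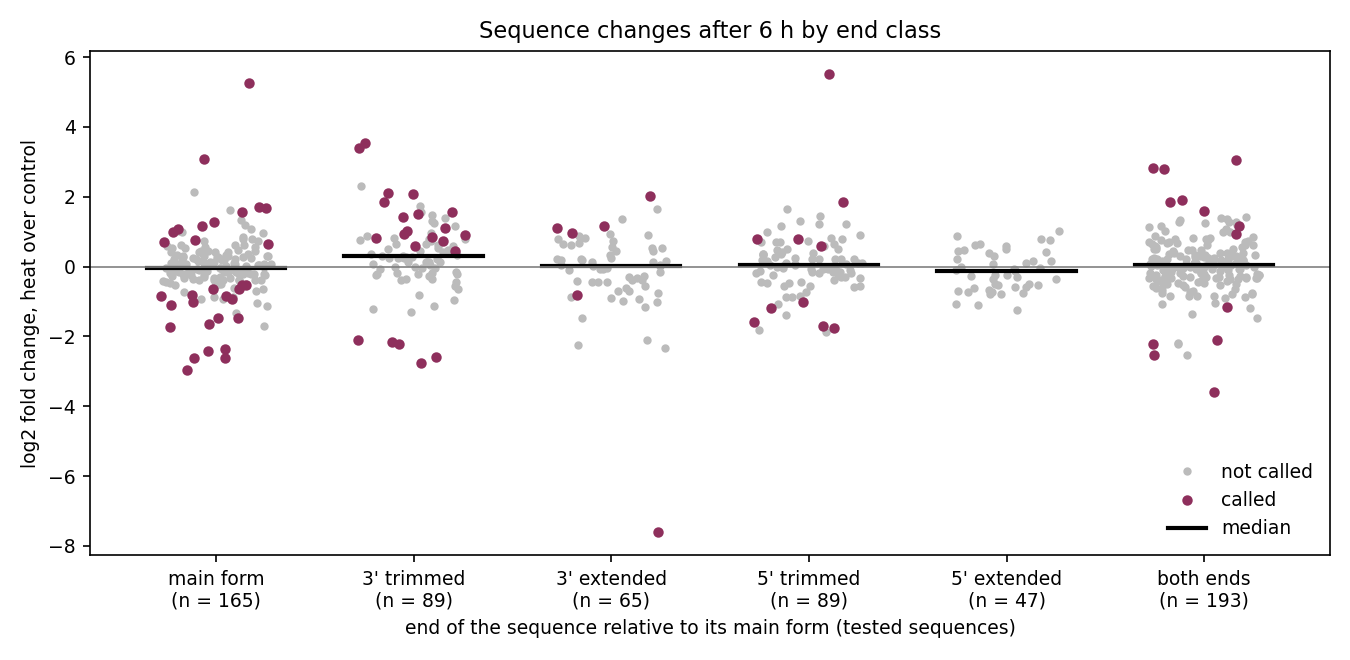
Log2 fold change of heat over control for each tested sequence, by how its ends differ from those of its main form; bars are medians and coloured points are called. The 3′ trimmed sequences have the highest median of the 6 classes, 0.31; the lowest point is a MIR169c sequence with 0 counts in heat, whose fitted value is no bound.

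Examples show which bases are missing. The main form and a 3′ trimmed form are given for 4 families, with the seed in capitals for mature forms and their variants; both forms keep the same seed.
miR168 3′ arm, main form: cCCGCCTTgcaccaagtgaat
miR168 3′ arm, 3′ trimmed: cCCGCCTTgcaccaagtgaa
miR396 5′ arm, main form: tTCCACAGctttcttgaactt
miR396 5′ arm, 3′ trimmed: tTCCACAGctttcttgaact
miR319 3′ arm, main form: cTTGGACTgaagggtgctccct
miR319 3′ arm, 1 base shorter: cTTGGACTgaagggtgctccc
miR319 3′ arm, 2 bases shorter: cTTGGACTgaagggtgctcc
miR444 precursor, 3′ trimmed: cggcaagctagagacagc

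In miR168 the trimmed 3′ arm held 907, 809 and 754 CPM in the heat libraries, against 288, 279 and 308 CPM in the control libraries (1.497 ± 0.15, adjusted p = 0.00104). Its main form held 13055, 13107 and 11698 CPM in the heat libraries, against 10690.0, 11882 and 11312 CPM in the control libraries (0.16 ± 0.12, adjusted p = 0.437). The trimmed form was thus separated in every library, and the main form overlapped between groups. A form of the same arm that lacks the first base instead fell (-1.01 ± 0.14, adjusted p = 0.00409). In miR396 the trimmed 5′ arm held 888, 776 and 785 CPM in the heat libraries, against 430.2, 399.2 and 527 CPM in the control libraries (0.85 ± 0.16, adjusted p = 0.0124), while its main form stood at -0.15 ± 0.13, adjusted p = 0.527. In miR319 the 3′ arm changed by 0.76 ± 0.17 in its main form, 1.42 ± 0.27 in the form 1 base shorter and 3.41 ± 0.38 in the form 2 bases shorter. The shortest of these held 53.5, 94.4 and 92.6 CPM in the heat libraries, against 10.8, 5.02 and 6.62 CPM in the control libraries, with no overlap and a call in 15 of 15 alternatives. The annotated mature form, which begins 1 base later, stood at 0.42 ± 0.16 (adjusted p = 0.126). The trimmed MIR444c precursor sequence was not called: it held 821, 795 and 739 CPM in the heat libraries, against 870.5, 813 and 777 CPM in the control libraries (-0.06 ± 0.13, adjusted p = 0.807; 0.17 with implied library totals). The calls of the trimmed miR168 form, of the miR168 form that lacks its first base and of the shortest miR319 form held with any 1 library left out; that of miR396 was lost without heat replicate 1 or without control replicates 1 or 2 (adjusted p up to 0.0822), and that of the miR319 main form without heat replicates 1 or 2 or without control replicates 1, 2 or 3 (adjusted p up to 0.124).

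The log2 ratio of all 3′ trimmed forms to their main form was tested within libraries over 64 main forms. It differed in 13 (20.3%), 12 higher and 1 lower, with 19 at an unadjusted p under 0.05, and the difference was above 0 in 48 of 64, with a median of 0.45. For the MIR444c precursor sequence the ratio was -2.71, -3.05 and -2.70 in heat, against -4.45, -4.53 and -4.51 in control (1.68 ± 0.18, limma adjusted p = 0.00793). For the miR168 3′ arm it was -3.82, -3.98 and -3.91 in heat, against -5.15, -5.36 and -5.18 in control (1.33 ± 0.17, limma adjusted p = 0.00861). Heat lay above control in all libraries for both. The other higher ratios were of MIR166e (1.27), MIR166a (1.26), MIR166d (1.18), MIR5168 (1.12), MIR396c (0.96), MIR396e (2.24), MIR319b and MIR319d (2.95), MIR394 (1.17), MIR827 (1.05) and MIR159b (1.04). A ratio can also be higher where the main form is lower. The MIR166d main form was called lower (-1.11), and its trimmed forms had 542, 522 and 268 counts in heat and 326, 282 and 320 in control. The lower ratio was that of MIR169d (-1.20). The minimum of 10 counts was a mean over all libraries, so a form could pass through 1 group. Trimmed counts were 65, 54 and 47 in heat and 1, 6 and 3 in control for MIR319b and MIR319d. They were 32, 28 and 36 against 11, 6 and 6 for MIR396e, and 7, 8 and 10 against 26, 24 and 33 for MIR169d. With a minimum mean of 100 counts, 9 of the 13 were tested and called. Those not tested were these and MIR166e. The trimmed forms took 6.55, 6.69 and 6.89% of counts in the heat libraries, against 5.03, 5.23 and 5.47% in the control libraries (exact permutation p = 0.1, the smallest that 3 against 3 libraries allow; adjusted over the 6 end classes 0.2). Every heat library lay above every control. At 1 h the shares were 6.62, 5.32 and 4.69% in heat and 4.52, 4.73 and 4.90% in control (exact permutation p = 0.3, adjusted 0.9), and these ranges overlapped. The 1 h shares were taken only over sequences that the 6 h table also lists, with the main forms of 6 h, so the measure is not the same. Sequences of 18 and 19 nt together held 4.00, 4.43 and 4.23% in the heat libraries, against 4.18, 4.11 and 4.10% in the control libraries, ranges that overlapped. What part RNA quality or library preparation had in the trimmed share was not tested. With limma, 0 of the ratios passed without heat replicate 1 (21 at an unadjusted p under 0.05). The counts were 6 or 8 when heat replicate 2 or 3 was left out, and 7, 3 or 3 when control replicate 1, 2 or 3 was. All 13 kept their direction in these fits.

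**Figure D4:**
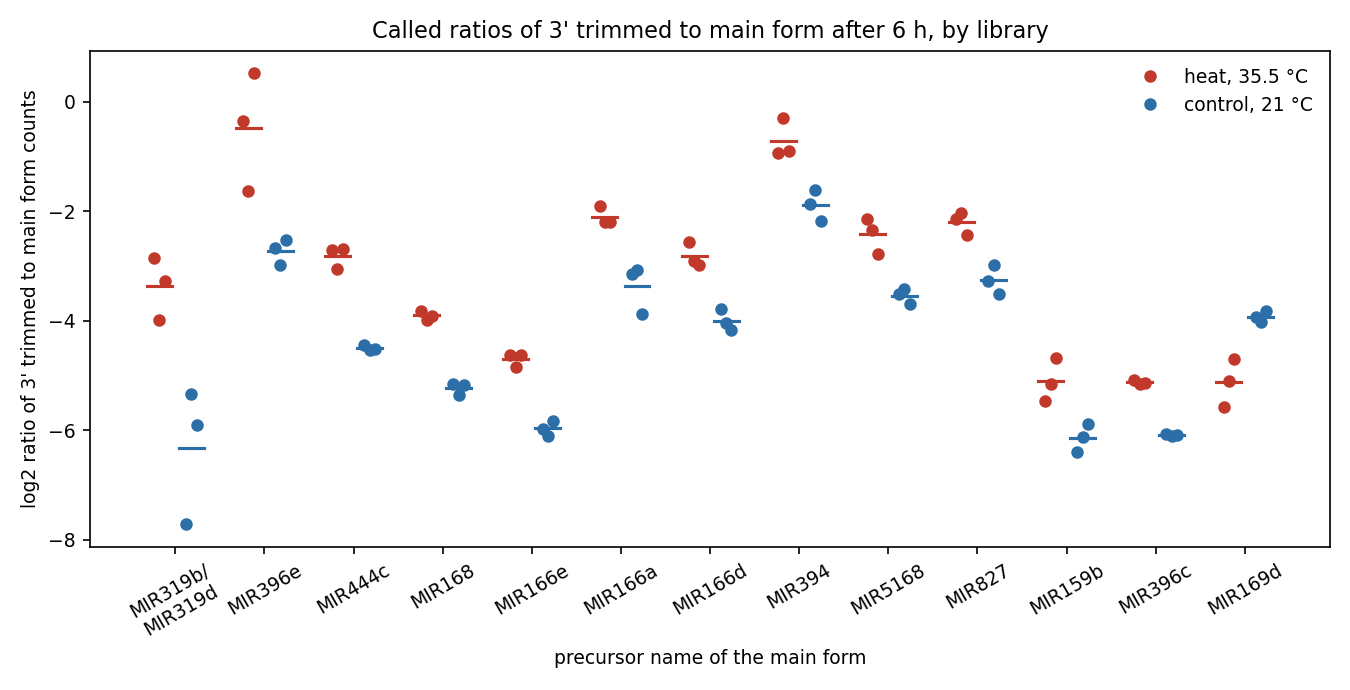
Log2 ratio of 3′ trimmed counts to main form counts in each library, for the 13 main forms whose ratio was called, with heat to the left of control; bars are means of 3. For 12 main forms all heat points lie above all control points, and for MIR169d they lie below.

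The largest single changes were mostly in scarce sequences. Those named are the 10 largest rises and 10 largest falls among called sequences that averaged 10 CPM or more over the 6 libraries, and their groups do not overlap. The furthest rise was of a 3′ trimmed 5′-arm sequence of MIR319b, with 27.4, 22.8 and 26.3 CPM in the heat libraries, against 0.635, 3.77 and 1.98 CPM in the control libraries (3.54 ± 0.52, adjusted p = 0.00431). It was almost missing from control and was called in 15 of 15 alternatives. Next to it stood the MIR319b form above, the miR9863 mature form, a 19 nt sequence of MIR396a and MIR396b (3.04 ± 0.55), an 18 nt sequence of MIR169c (2.10 ± 0.42) and one of MIR160f (2.08 ± 0.51). The other 4 were of MIR5048a and MIR5048b (1.91 ± 0.34), a MIR165 pair (1.84 ± 0.34 and 1.83 ± 0.38) and MIR9662a and MIR9662b (1.71 ± 0.40). The deepest fall was of a MIR169c sequence outside the mature forms, with 15.5, 28.9 and 33.8 CPM in the heat libraries, against 199.5, 225 and 177 CPM in the control libraries (-2.95 ± 0.30, adjusted p = 0.00104). Heat libraries lay far under control, and all 15 alternatives called it. A form 1 base longer, named after its values were seen, was counted 0 times in heat libraries and 63 times in control, which made it at least 27.7-fold lower in heat against a floor of 3 counts over the group.

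Other deep falls were of MIR399a (-2.62 ± 0.65), the miR528 and miR408 arms above, MIR5052 (-2.22 ± 0.43), MIR169d (-2.16 ± 0.45), further MIR169c sequences (-2.22 ± 0.48 and -2.10 ± 0.29) and a 5′ trimmed MIR444c sequence (-1.75 ± 0.24). The last of the 10 was a precursor-class sequence of MIR166b, with 58.8, 93.5 and 48.8 CPM in the heat libraries, against 281, 290.0 and 475 CPM in the control libraries (-2.37 ± 0.31, adjusted p = 0.00293), called in 15 of 15 alternatives. The calls of these 20 held in 9 to 15 of 15 alternatives. With 1 library left out at a time, 7 of the 20 kept theirs in all 6 fits. Of the 13 others, 11 lost it without control replicate 1 and 11 without control replicate 2, 7 without heat replicate 1 and 6 without control replicate 3, 2 without heat replicate 3 and 1, MIR9662, without heat replicate 2. The 5 of the 20 that were called in all 15 alternatives are these.
MIR169c, outside the mature forms: cctagttctcttcttctggtg
MIR169c, near the mature form: aGGCGGTCaccttggctagcc
MIR166b, precursor class: gAATGACGccgggtccgaaag
MIR319b, 5′ arm, 3′ trimmed: aGAGCGTCcttcagtccact
MIR319b, 3′ arm, 2 bases shorter: cTTGGACTgaagggtgctcc

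Over the whole table, mature 5′ forms took 45.9, 41.6 and 40.6% in the heat libraries, against 39.4, 36.5 and 39.2% in the control libraries. The Precursor class took 43.4, 47.2 and 48.8% in the heat libraries, against 49.1, 52.0 and 49.5% in the control libraries, and mature 3′ forms 10.8 ± 0.322% in heat and 11.4 ± 0.154% in control (SD). Heat and control were separated in each of the 3 shares, at the smallest exact permutation p that 3 against 3 libraries allow, 0.1 (adjusted over 3 shares 0.1). Without the 10 most abundant sequences the difference of the mature 5′ share was 0.26 percentage points, and that of the mature 3′ share turned to 1.91. By length, sequences of 21 nt took 80.9, 79.8 and 79.9% in the heat libraries, against 82.9, 83.5 and 83.1% in the control libraries. Those of 22 nt took 7.75, 8.13 and 7.97% in the heat libraries, against 6.42, 5.93 and 6.18% in the control libraries, and those of 20 nt 6.88, 7.26 and 7.27% in the heat libraries, against 5.95, 5.87 and 6.14% in the control libraries. The 21 nt share was lower and the 20 and 22 nt shares higher in every heat library (exact permutation p = 0.1 each, adjusted over 5 lengths 0.167). Without the 10 most abundant sequences the 22 nt shares overlapped, with 16.2, 16.4 and 16.1% in the heat libraries, against 14.5, 14.7 and 16.7% in the control libraries (exact permutation p = 0.4, adjusted 0.4), and the 20 and 21 nt shares stayed separated. Shares of 23 and 24 nt were 0.254 and 0.196% in heat and 0.235 and 0.263% in control (exact permutation p = 0.5 and 0.2, adjusted 0.5 and 0.25).

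Whether the 6 h response differs from that after 1 h was tested as the difference of the 2 heat effects, each within its own lane. Of 75 families 1 passed (1.33%), with 7 at an unadjusted p under 0.05. miR172 stood at 36.7, 50.9 and 30.6 counts per 1000000 of the table in the 1 h heat libraries, against 54.0, 62.5 and 63.6 in the 1 h control libraries. It changed by 1.31 at 6 h and by -0.59 ± 0.27 at 1 h in the joint fit, a difference of 1.90 ± 0.38 (edgeR adjusted p = 0.0248). It was higher in all heat libraries than in any control at 6 h and lower in all at 1 h. Over the fits with 1 of the 6 h libraries left out the difference ran between 1.80 and 2.13. The call was lost without control replicate 2 or 3, with an adjusted p up to 0.101. miR444 changed by -0.88 at 6 h and by -0.92 ± 0.14 at 1 h (difference 0.04 ± 0.19, adjusted p = 0.947). miR165, miR399, miR5051 and miR167 had differences of 1.53 ± 0.45, -1.58 ± 0.55, 2.54 ± 0.99 and 0.70 ± 0.28, with adjusted p from 0.19 to 0.307. Of 884 sequences that both tables list and that passed the filter, edgeR called 0, or 0%, for this difference (83 at an unadjusted p under 0.05; DESeq2 was not run on it). Without the count filter it called 15. The 2 times were on different lanes, and each heat effect was taken against the controls of its own lane.

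In the authors' deposited table, 66 sequences (1.43%) had an FDR under 0.05, 33 higher and 33 lower in heat. Of these 55 were among the 673 tested here and 53 were also called here, all 53 in the direction that the authors' deposited table gives. The other 31 calls made here were not at an FDR under 0.05 in the authors' deposited table.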

How the data were processed

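Small RNA libraries of barley shoots were made with a kit for small RNAs and 9 were pooled per lane, per the labels' protocols. The deposited table of the 6 h comparison holds whole read counts per distinct sequence and library, with a family name, species and match type for each, per the file headers. Its normalized values are 1 constant per library times the count, per the file headers and values, and were taken as RPM, reads scaled by the authors to a library of 1000000. The table also holds the authors' fold, a signed score, and their FDR-corrected p-value from a test with tagwise dispersions, per the file headers. No aligner, annotation release or version was given in the sources used here. All per-library columns were mapped to a sample.

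Counts were tested with edgeR 4.0.16 (R 4.3.3; TMM factors over the 6 h table, filterByExpr with a minimum count of 10 and total of 15, quasi-likelihood F test, Benjamini-Hochberg adjustment over all tested features, threshold 0.05). Family totals go by the number in the name, and near-identical families share reads by name only. Ratios within a library were tested with limma 3.58.1 after adding 0.5 to counts, where both classes averaged at least 10 counts over all libraries in the fit. Shares were compared by two-sided exact permutation over libraries. A main form has at least 100 counts, and a sequence belongs to the main form it overlaps by at least 15 bases. An end variant shares at least 15 bases with a mature form. DESeq2 1.42.0, other scalings, other filters, a fold of at least 2, a fit of 18 libraries and each library left out were alternatives. The TMM factors of tested sequences and all of the 3′ trimming analysis, with its alternatives, were added after the data were seen.

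Named families are the called ones and the most abundant of each list. Named sequences are the 10 largest called rises and falls with at least 10 CPM and no overlap, the most abundant sequence of each called family and of the table, and others said to be chosen later, those of the trimming paragraphs among them. The families and lists were chosen with earlier results of these data known. A count of 0 allows up to 3 counts, 0.0955 to 0.129 RPM by library, which covers counting error only. The scripts were tested on simulated counts first.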

Additional observations from a re-analysis of the deposited data

Results flagged for a closer look

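The miR172 total responded differently at the 2 times: the heat effect at 6 h minus that at 1 h was 1.90 on the log2 scale, by an edgeR test of the difference itself (adjusted p = 0.0248). The groups did not overlap at either time, with heat above control in 3 of 3 libraries at 6 h and below it in 3 of 3 at 1 h. At 6 h most counts of this total were annotated as mature 5′, and no mature 3′ total was tested. The difference was 2.13 without heat replicate 2 (adjusted p = 0.00593), and its call was lost without control replicate 2 (1.93) or control replicate 3 (1.80), with an adjusted p of up to 0.101.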

How the results depend on the processing

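No paired analysis was possible because the labels and columns number no replicates: the numbers 1 to 3 used here follow the order in which the libraries are listed, only name them and pair none, so the replicate block was not run. The 3′ trimming results and the TMM factors of tested sequences were chosen after seeing the data. Main counts of calls were 84 sequences, 11 families, 18 arm totals, 8 mature to precursor ratios and 13 trimmed ratios. Against a fold of at least 2 they were 9 sequences, 0 families (1 at an unadjusted p under 0.05) and 0 arm totals (10 unadjusted). DESeq2 gave 33 arm totals. Implied library totals gave 3 families, beside a median of 0.24 over all sequences; the cause was not tested. The 6 h minus 1 h difference gave 15 sequences with no filter. With 1 library left out, counts ran from 26 to 77 for sequences, 1 to 9 for families, 1 to 18 for arm totals, 0 to 7 for mature to precursor ratios, 0 to 8 for trimmed ratios and 0 to 2 for the 6 h minus 1 h difference of families, in fits with fewer samples. The mature 3′ share difference turned to 1.91 percentage points without the 10 most abundant sequences and to 0.165 as a share of distinct sequences, and that of 23 nt to -0.909 as a share of distinct sequences. Signs of values that were not called also turned. With implied totals these were MIR166e 0.023 (the mature 3′ form), MIR396c 0.065, MIR5168 0.13, the trimmed MIR444c sequence 0.17, miR156 0.19, miR169 0.11 and miR168 0.24. For miR408 they were -0.025 with DESeq2 and with RLE factors and -0.032 with TMM factors of tested sequences. With 1 library left out, miR408 ran from -0.51 to 0.21, miR156 from -0.37 to 0.062 and miR168 from -0.17 to 0.11. Of the other alternatives for single sequences and families, 1508 kept their side of the threshold, 678 of called ones did not pass and 6 passed anew, and no called sequence or family turned its sign.

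With 3 libraries a group, calls rest on the spread shared over features, and an exact permutation test cannot go below 0.1. Scarce sequences are limited by depth: a call at under 10 CPM can rest on few counts in 1 group.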

Other observations

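The miR9773 family had 8 counts in heat replicate 2 and 823 and 667 counts in the other heat libraries, against 321, 433 and 440 counts in the control libraries. Of the other libraries of the series, control replicate 1 of 3 h was also low, with 13 counts, and the rest had 510 to 2463. Sequences of 24 nt had a median fold change of -0.51 over 30 tested sequences (the median over all tested sequences was 0.04), and of -0.17 without heat replicate 2. They took 0.227, 0.112 and 0.2501% of counts in the heat libraries, lowest in heat replicate 2, against 0.272, 0.283 and 0.234% in the control libraries.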
